A study of Mus musculus with 6 samples.

Results

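The 34 autophagy genes described here are a list of named mouse genes, from Atg3 to Epg5, that build, load and regulate autophagosomes. All 34 were found by symbol among the 52636 genes of a single-cell UMI count table (a UMI is a tag that marks 1 captured RNA molecule). The rule of the list names the genes and uses no measured value. The cells were isolated from the RPE (retinal pigment epithelium) and choroid, the vascular layer behind the retina, and were cultured before 10x Genomics 3′ sequencing. The study asked how loss of Dram2, a lysosomal membrane protein implicated in autophagy, affects these cells, and the table holds 25428 cells from 3 Dram2 wt/wt and 3 Dram2 ko/ko samples. All came from male C57BL/6J mice aged 12 to 16 months. The Dram2 ko/ko mice carry a constitutive deletion of exon 4, so every cell lacks it. How many mice a sample holds is not given in the sources used here, and p-values therefore measure the spread between samples. The labels place all samples in batch 1 apart from Dram2 ko/ko replicate 3, the single sample of batch 2.

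Autophagy delivers cytoplasmic material to the lysosome inside a double-membraned vesicle. The Ulk kinase complex starts the process, a class III PI3-kinase complex marks the growing membrane with PI3P, and ubiquitin-like conjugation attaches the Atg8 proteins (the LC3 and GABARAP families) to it. Cargo receptors tie mitochondria, protein aggregates and other cargo to Atg8 proteins, and late factors join the closed vesicle to the lysosome. In the RPE the same conjugation machinery also serves the digestion of photoreceptor outer segments. Tfeb, a transcription factor of lysosome and autophagy genes, recognises promoters that contain the E-box CACGTG.

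The promoter sequences of the list are shown for that E-box, and because Bnip3, the member whose level differed most between cell types, holds one. The promoter windows came from RefSeq (GRCm38.p6, 250 bases before to 50 bases after the start of a gene). A single window was found for 23 of the 34 members and was searched on both strands. CACGTG was found in 5 of these 23 members (Atg3, Atg5, Atg7, Atg14 and Bnip3), against 7.12% of 22862 promoters. The shorter ACGTG, the core that hypoxia-inducible factors recognise, lies inside CACGTG and was found in 10 of the 23 members, against 19.4% of all promoters. The lines give 30 bases on the strand of the gene, 5′ to 3′, with the E-box in capitals.
Atg3, first site: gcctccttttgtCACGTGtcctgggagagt
Atg3, second site: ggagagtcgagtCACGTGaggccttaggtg
Atg5: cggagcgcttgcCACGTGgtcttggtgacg
Atg7: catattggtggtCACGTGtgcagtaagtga
Atg14: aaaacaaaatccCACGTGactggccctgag
Bnip3: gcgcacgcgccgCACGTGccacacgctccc
The 2 Atg3 sites lie at chr16:45158723-45158752 and chr16:45158746-45158775 on the plus strand. Those of Atg5 (chr10:44268313-44268342) and Atg7 (chr6:114670952-114670981) are also on the plus strand. Those of Atg14 (chr14:47568418-47568447) and Bnip3 (chr7:138909597-138909626) are on the minus strand. The E-box began at position -108 from the RefSeq start site in Bnip3, -94 and -71 in Atg3, -132 in Atg7, -14 in Atg5 and -1 in Atg14. Gene coordinates elsewhere in the text come from another annotation, GENCODE. In it Atg7 (chr6:114643097-114860614, plus strand) and Atg14 (chr14:47540893-47570649, minus strand) begin upstream of their RefSeq windows. These matches are a description of the letters in the window.

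Counts were summed per sample, over all cells or within each of the 8 cell types and 9 fibroblast sub-clusters of the deposited annotation. A level is given as CPM, the UMIs of a gene per 1000000 UMIs in the sum. The 6 samples held 96808998 to 122746184 UMIs and 2140 to 6648 cells, with medians of 16453 (Dram2 ko/ko replicate 2) to 47373 (Dram2 ko/ko replicate 1) UMIs per cell. Most cells were fibroblasts, with 12651 in the type named Fibroblast, 3019 in Fibroblast 2, 6465 in Fibroblast proliferating and 1121 in Fibroblast-like. The RPE type held 1492 cells, the Pericyte type 308, the Endothelial type 288 and the Myeloid type 84. Myeloid sums of 10 or more cells came from 4 samples, and each other type had 6. The RPE type carried its marker list at a summed 819 CPM (13.3 CPM or less in every other type), mostly Krt18, at 710 CPM. The fibroblast list stood at 637 CPM in the RPE type and 1102 CPM in the Endothelial type, against 4967 CPM in Fibroblast. It was at 3101 CPM in the Myeloid type (1676 to 4494 CPM by sample) and at 5743 CPM in the Pericyte type. The part of fibroblast RNA in the Myeloid levels given below was not tested. In the Pericyte type the list of 7 pericyte markers stood at 236 CPM (25.2 to 195 CPM in the other types), mostly Cspg4 at 199 CPM, while Kcnj8, Higd1b and Ndufa4l2 were at 0. A list of Schwann cell markers stood at 1307 CPM in it (0.924 to 7.54 CPM in the other types). "Pericyte" is therefore used here only as the label of the cluster. The 3′ end of Dram2 lies outside the deleted exon and does not check the genotype labels. Its level was 33.4, 39.6 and 38.1 CPM in wt/wt and 30.7, 28.3 and 30.1 CPM in ko/ko samples. The 2 sets of values did not overlap, and the log2 fold change was -0.30 (ko/ko over wt/wt, SE 0.0871, voom-limma unadjusted p = 0.0082). It did not pass after adjustment over all genes (adjusted p = 0.301). Within each of the 8 cell types the estimate was also negative, from -0.675 in Fibroblast-like cells to -0.049 in the Pericyte type, and none was called.

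Levels of the autophagy genes differed between cell types, and each type is described against Fibroblast as the reference. The types are clusters of the same genes, so these values are a description with no test. A gene was counted as higher or lower only where it was so in every sample, and the same count over the 14772 genes at 1 CPM or more gives the background. Log2 ratios between types or sub-clusters are those of mean CPM + 0.5, which draws the ratios of low genes toward 0. Endothelial cells had 11 of the 34 members higher (background 17.4%) and 3 lower (21.5%), with a median log2 ratio of 0.36 against -0.03 over all genes. Fibroblast 2 had 19 higher (33.5%) and 8 lower (32.4%), with a median of 0.26 against 0.01. The other direction was seen in Fibroblast proliferating, with 3 members higher (36.2%) and 21 lower (31.3%) and a median of -0.16 against 0.01.

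The remaining types had medians nearer to those over all genes, while some of their counts stood away from the background. Fibroblast-like cells, with a median of 4825 UMIs per cell, had 2 members higher (9.83%) and 20 lower (45.1%), and their median of -0.62 stood beside -0.52 over all genes. In RPE cells 4 members were higher (21.9%) and 9 lower (24.1%), with a median of -0.08 against 0.01. The Pericyte type had 3 higher (21.4%) and 8 lower (20.7%), with a median of -0.08 against 0.03. Over the 4 samples with Myeloid cells 7 members were higher (10.9%) and 8 lower (20.5%), with a median of -0.03 against -0.10. The plot of the members by cell type shows that the roles do not move as a block.

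**Figure D1:**
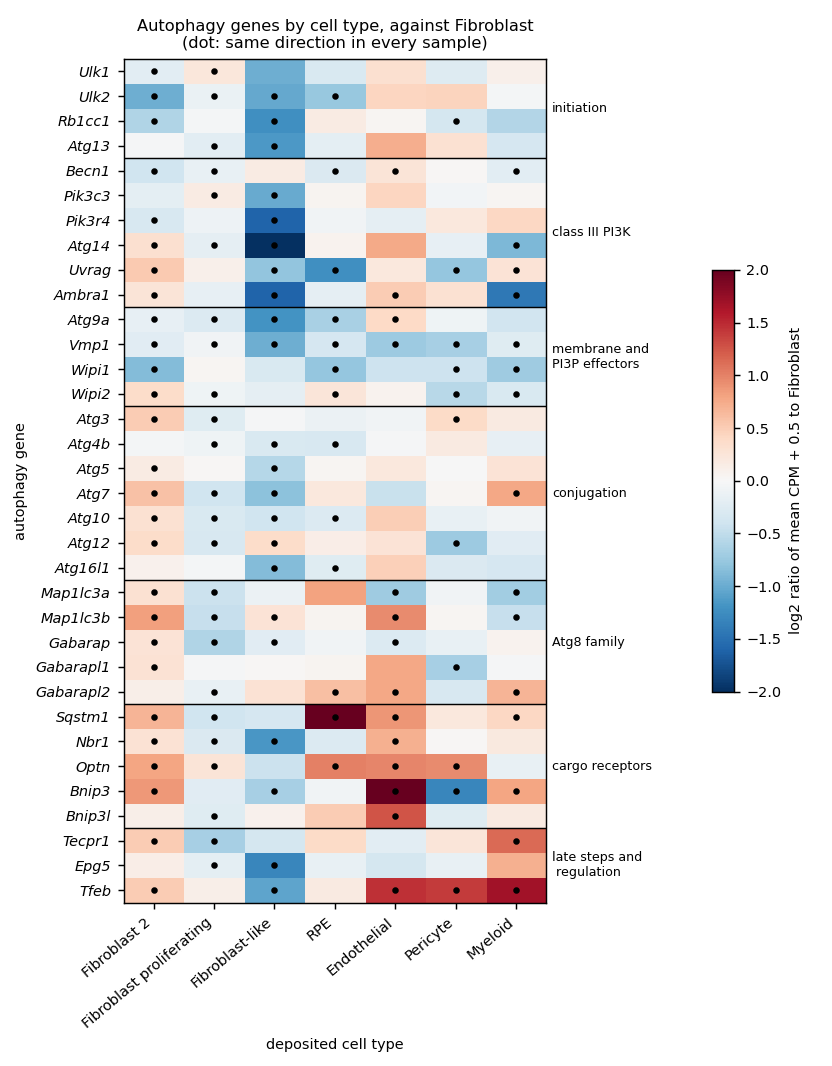
Log2 ratio of the mean CPM + 0.5 of each of the 34 autophagy genes (rows, by role) in each cell type (columns) to Fibroblast, with colour saturating at 2 in either direction and a dot where the direction was shared by every sample. Bnip3 in Endothelial, Sqstm1 in RPE and Tecpr1 in Myeloid cells are high, and the Fibroblast-like column is mostly low.

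The 5 cargo receptors were all higher in Endothelial cells than in Fibroblast in every sample, with a median log2 ratio of 0.97, and were the role with the highest median in Fibroblast 2 (0.67) and RPE (0.50) as well. Bnip3 (chr7:138890836-138909519, minus strand), a mitochondrial outer membrane receptor induced by hypoxia, ranged most widely of the 34 members, with a ratio of 34.2 between its highest and lowest cell type. In Endothelial cells its level was 139, 70.5 and 109 CPM in wt/wt and 166, 118 and 162 CPM in ko/ko samples. In Fibroblast it was 9.12, 8.33 and 10.2 CPM and 10.3, 11.3 and 10.1 CPM, so that every endothelial value lay above every fibroblast value. The means were 127 ± 36.0 and 9.90 ± 1.02 CPM (SD, n = 6), a ratio of 12.9. Fibroblast 2 followed at 18.4 ± 2.88 CPM and Myeloid cells at 17.6 ± 8.30 CPM (n = 4), neighbours that overlapped. The Pericyte type was lowest at 3.72 ± 2.23 CPM.

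The share of cells with at least 1 Bnip3 UMI was also highest in Endothelial cells at matched depth. With each cell thinned to 5000 UMIs, which left out 750 cells of the Dram2 wt/wt and 690 of the Dram2 ko/ko samples, 45.8% of Endothelial cells had a Bnip3 UMI (38.7% to 53.1% by sample). The other 7 types stood between 3.78% and 9.43%, and free RNA was not separated from expression in these shares. Without thinning the shares were 60.4% in Endothelial cells, at a median of 9262.5 UMIs per cell, and 22.2% in Fibroblast, at 26108. Bnip3l, the related receptor that clears mitochondria from maturing red cells, was 62.7 ± 9.38 CPM in Endothelial cells and 25.9 ± 2.41 CPM in Fibroblast, higher in 6 of 6 samples. A list of 18 other hypoxia-induced genes was taken beside them, of which 17 were at 1 CPM or more. In Endothelial cells 16 of these 17 were higher in every sample, with a median log2 ratio of 1.30, and the summed list stood at 5203 ± 800 CPM against 2575 ± 154 CPM in Fibroblast. Ankrd37 was at 124 ± 36.4 CPM against 2.23 ± 0.324 CPM, and Pdk1, the kinase that shuts pyruvate dehydrogenase, at 32.6 ± 8.09 CPM against 1.84 ± 0.400 CPM. The part of these genes, or of the fibroblast markers in Endothelial cells (667 to 1933 CPM by sample), in the Bnip3 level was not tested.

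Sqstm1 (p62, chr11:50199366-50210827, minus strand), the receptor for ubiquitinated aggregates, was highest in RPE cells. There its level was 964, 460 and 853 CPM in wt/wt and 1089, 936 and 332 CPM in ko/ko samples, against 149 to 172 CPM in Fibroblast. The RPE mean of 772 ± 304 CPM was 4.86 times the Fibroblast mean of 159 ± 9.79 CPM, and the lowest RPE sample was still above the highest Fibroblast sample. Endothelial cells (294 ± 74.9 CPM) and Fibroblast 2 (254 ± 21.4 CPM) followed and overlapped each other, and Fibroblast proliferating was lowest at 121 ± 5.08 CPM. At 5000 UMIs per cell 60.5% to 88% of RPE cells and 48.0% to 52.5% of Fibroblast cells had a Sqstm1 UMI by sample. Over all cells of a type, which weights samples by their cells, the shares were 69.3% and 50.6% (88.9% and 89.3% without thinning).

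The spread of Sqstm1 among RPE samples went with other values of those samples. The low samples, replicate 2 of Dram2 wt/wt and replicate 3 of Dram2 ko/ko, held 539 and 575 RPE cells, while the other 4 held 56 to 152. The same pair had the lowest summed RPE markers, at 504 and 295 CPM against 868 to 1104 CPM. A list of 10 Nrf2 targets, the antioxidant genes whose regulator also acts on Sqstm1, was at 5906 and 3388 CPM in that pair against 11581 to 14826 CPM in the others. Of this list 5 genes were higher in RPE than in Fibroblast in every sample (background 21.9%), and the rest were not. The median log2 ratio of the list was 1.31. Among the 5 were Gsta4, at 1438 ± 718 CPM against 95.4 ± 13.9 CPM, and the glutathione synthesis subunit Gclm, at 950 ± 385 CPM against 353 ± 50.7 CPM. The same pair of samples was also lowest outside RPE, though by less. In Fibroblast the Nrf2 list was at 3156 and 3312 CPM in the pair against 3493 to 4617 CPM. In fibroblast sub-cluster 1 Sqstm1 was at 146 and 152 CPM in the pair against 156 to 171 CPM, while in sub-cluster 3 the pair was not the lowest. Which part cell number, cell identity, these genes or the sample as a whole have in the Sqstm1 spread was not tested. The other cargo receptors were less uneven. Optn, a receptor in mitophagy, was near 22 CPM in RPE (22.8 ± 7.49), Endothelial (22.1 ± 4.26) and Pericyte cells (21.9 ± 6.33), against 11.1 ± 0.735 CPM in Fibroblast, and those 3 types did not differ beyond their spread. At 5000 UMIs per cell the shares of cells with an Optn UMI did not separate them from Fibroblast. By sample these were 4.0% to 15.5% in RPE, 4.76% to 22.7% in Endothelial and 5.98% to 23.5% in Pericyte cells. Fibroblast had 4.63% to 6.52% and Fibroblast 2 had 8.95% to 11.9%. Nbr1, a partner of Sqstm1, went from 70.7 ± 23.7 CPM in Endothelial to 19.0 ± 4.37 CPM in Fibroblast-like cells, with 42.9 ± 4.45 CPM in Fibroblast.

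**Figure D2:**
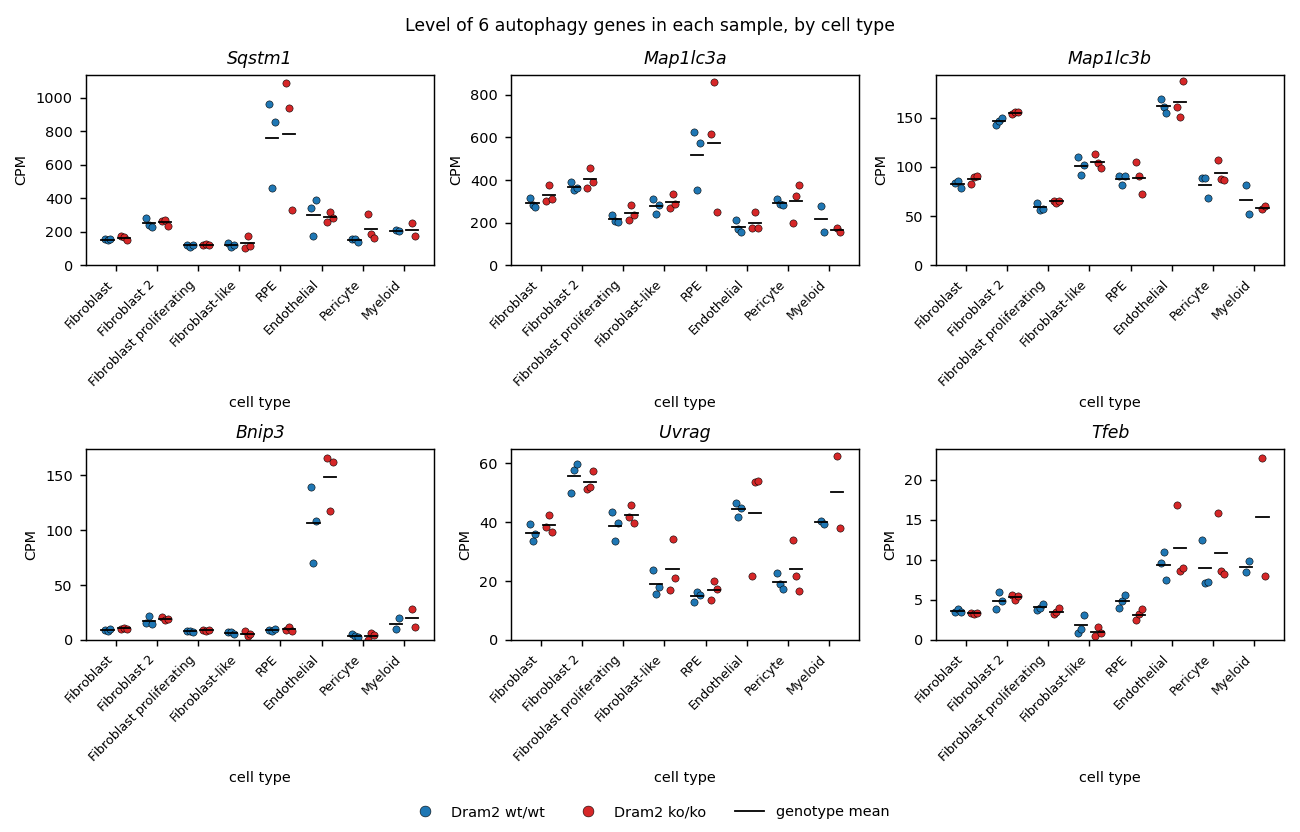
Level in CPM by cell type for Sqstm1, Map1lc3a, Map1lc3b, Bnip3, Uvrag and Tfeb, with a point per sample (blue Dram2 wt/wt, red Dram2 ko/ko) and a bar at the mean of each genotype. Genotypes are interleaved in most types, and the RPE points of Sqstm1 range from 332 to 1089 CPM.

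The 5 Atg8 family members, the proteins that coat the autophagosome, each had their own order of cell types. Map1lc3a (LC3A, chr2:155276297-155278073, plus strand) was 626, 351 and 572 CPM in the wt/wt and 617, 860 and 251 CPM in the ko/ko samples of RPE cells, which put it above Fibroblast in 5 of 6 samples. The RPE mean was 546 ± 217 CPM and that of Fibroblast 311 ± 35.8 CPM. The samples with 539 and 575 RPE cells were again the lowest. At 5000 UMIs per cell the share of cells with a Map1lc3a UMI was 59.6% to 91.8% by sample in RPE, around the 72.0% to 81.1% of Fibroblast, and no order of these types is read from it. Endothelial (189 ± 34.1 CPM) and Myeloid cells (192 ± 57.3 CPM) were lowest and did not differ beyond their spread.

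Map1lc3b (LC3B, chr8:121590361-121598760, plus strand), the Atg8 protein most used to follow autophagosomes, had another pattern. It was 142, 147 and 150 CPM in the wt/wt and 153, 156 and 155 CPM in the ko/ko samples of Fibroblast 2. In Fibroblast it was 83.8, 85.7 and 78.7 CPM and 82.9, 89.6 and 90.3 CPM. Endothelial cells overlapped with Fibroblast 2 at 164 ± 13.0 CPM, while Fibroblast proliferating (62.0 ± 4.07 CPM) and Myeloid cells (62.4 ± 12.9 CPM) were lowest. Gabarap (chr11:69991143-69994951, plus strand) was 1620 to 1968 CPM in Fibroblast 2, 1330 to 1677 CPM in Fibroblast and 867 to 1134 CPM in Fibroblast proliferating, with means of 1729 ± 131, 1435 ± 132 and 946 ± 99.4 CPM. The first pair overlapped over samples but kept its order within every sample, and the proliferating cells lay below both. Gabarapl1 was 77.6 ± 20.9 CPM in Endothelial, 45.4 ± 0.925 CPM in Fibroblast and 28.6 ± 6.25 CPM in Pericyte cells. Gabarapl2 was higher than in Fibroblast (13.8 ± 2.12 CPM) in every sample of Endothelial (23.998 ± 8.27), Myeloid (21.1 ± 6.47) and RPE cells (21.2 ± 6.30), which overlapped each other.

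Among the 6 genes of the class III PI3-kinase complex, Uvrag (chr7:98885021-99141141, minus strand) had its lowest mean in RPE cells. Uvrag directs the complex to vesicle maturation and endosomes. Its level in RPE was 12.9, 16.4 and 15.2 CPM in the wt/wt and 13.7, 19.97 and 17.3 CPM in the ko/ko samples. In Fibroblast the lowest of the 6 samples was 33.8 and the highest 42.4 CPM, so the sets did not overlap, and the RPE mean of 15.9 ± 2.57 CPM was 0.421 times that of Fibroblast (37.8 ± 3.00 CPM). Fibroblast 2 was highest at 54.7 ± 4.15 CPM. The shares of cells at 5000 UMIs had the same order, with 7.19% in RPE, 16.8% in Fibroblast and 24.6% in Fibroblast 2. The low level was not particular to RPE. The Pericyte type overlapped it, at 16.5 to 22.7 CPM apart from 34.05 CPM in Dram2 ko/ko replicate 1. Shares were 8.70% in Fibroblast-like cells and 10.6% in the Pericyte type, and both overlapped RPE by sample. Atg14, the subunit that targets the complex to the site of autophagosome formation, was 16.5 ± 7.79 CPM in Endothelial and 9.59 ± 0.982 CPM in Fibroblast. The low end of Atg14 (1.78 ± 1.21 CPM), of the scaffold Ambra1 (2.43 ± 2.04 CPM) and of the pseudokinase subunit Pik3r4 (3.51 ± 2.12 CPM) was in Fibroblast-like cells, on 10, 14 and 21 UMIs in all. The highest level of Pik3r4 was in Myeloid cells (16.3 ± 8.80 CPM, on 24 UMIs), and that of Ambra1 in Endothelial cells (12.1 ± 4.50 CPM). Becn1 (Beclin 1), the core subunit, was among the most even members, with a ratio of 1.58 between its highest type (Endothelial, 120 ± 12.5 CPM) and its lowest (Fibroblast 2, 76.2 ± 4.35 CPM). The lipid kinase Pik3c3 itself was 8.69 ± 1.21 CPM in Fibroblast and 9.78 ± 1.37 CPM in Fibroblast proliferating, with lower values in Fibroblast-like cells (4.05 ± 2.86 CPM).

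The 4 initiation genes had a median log2 ratio of -1.09 in Fibroblast-like cells and of -0.41 in Fibroblast 2, where 3 of them were lower in every sample. The Fibroblast-like type joins 763 cells of fibroblast sub-cluster 5, 168 of sub-cluster 6 and 168 of sub-cluster 8, where a median of 91.1% of UMIs were mitochondrial. Spearman's rho between transcript length and the log2 ratio of this type to Fibroblast was -0.43 over the 34 members and -0.43 over 14740 genes, and the part of RNA quality in its levels was not tested. Ulk2, a kinase of the complex, was 12.6 ± 2.69 CPM in Fibroblast 2 and 25.1 ± 1.84 CPM in Fibroblast, with no overlap. Rb1cc1 (FIP200), its scaffold, was 58.6 ± 3.76 and 89.6 ± 7.70 CPM in the same types, again with no overlap. Ulk1 was lower in Fibroblast 2 in 6 of 6 samples by a small margin (11.9 ± 2.24 against 13.8 ± 2.38 CPM). Atg13, the regulatory subunit, was 20.6 ± 8.43 CPM in Endothelial, 12.3 ± 1.82 CPM in Fibroblast, 12.2 ± 2.46 CPM in Fibroblast 2 and 5.25 ± 2.58 CPM in Fibroblast-like cells. Of the membrane genes, the PI3P effector Wipi1 was 61.5 ± 4.08 CPM in Fibroblast 2 and 112 ± 6.51 CPM in Fibroblast, while the related Wipi2 was 115 ± 6.82 and 88.7 ± 2.602 CPM, the reverse order. Vmp1, which remodels the endoplasmic reticulum membrane, was lower than in Fibroblast (333 ± 27.2 CPM) in every sample of each of the 7 other types. Atg9a, the lipid scramblase of the seed vesicles, was 25.3 ± 9.05 CPM in Endothelial, 19.1 ± 2.25 CPM in Fibroblast and 8.04 ± 2.83 CPM in Fibroblast-like cells.

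Of the 7 conjugation genes, Atg4b, the protease that primes Atg8 proteins, had the smallest ratio of the 34 members between its highest and lowest type (1.42). In Fibroblast 2, 5 of the 7 were higher than in Fibroblast in every sample. Atg3, the E2-like enzyme, was 179 ± 7.50 against 126 ± 5.597 CPM, Atg7, the E1-like enzyme, 25.0 ± 3.70 against 16.5 ± 0.948 CPM, and Atg12 72.9 ± 3.95 against 56.2 ± 1.90 CPM. Atg5 (77.04 ± 7.27 against 68.8 ± 6.04 CPM) and the E2-like Atg10 (19.4 ± 2.74 against 15.7 ± 1.73 CPM) were also higher within each sample, with overlap between samples. Atg16l1, which fixes the site of lipidation, was 20.2 ± 4.799 CPM in Endothelial and 14.4 ± 0.630 CPM in Fibroblast. Among the late factors, Tecpr1, a lysosomal tether, was 38.9 ± 5.596 CPM in Myeloid cells (45.7 and 32.0 CPM in wt/wt replicates 2 and 3, 39.7 and 38.1 CPM in ko/ko replicates 2 and 3) and 17.8 ± 1.70 CPM in Fibroblast. Tfeb was 12.3 ± 6.999 CPM in Myeloid, 10.4 ± 3.34 CPM in Endothelial and 9.93 ± 3.51 CPM in Pericyte cells, on 17, 36 and 52 UMIs, against 3.46 ± 0.210 CPM in Fibroblast. The 3 high types overlapped, and in CPM each of their samples was above every Fibroblast sample. At 5000 UMIs per cell 0.0% to 7.14% of Endothelial cells had a Tfeb UMI by sample, which overlapped the 0.839% to 2.45% of Fibroblast. The shares were 2.56% to 17.6% in the Pericyte type and 4.76% to 15.4% in 3 Myeloid samples. Epg5, a Rab7 effector for fusion with lysosomes, was highest in Myeloid cells (10.8 ± 8.54 CPM) and lowest in Fibroblast-like cells (2.33 ± 2.15 CPM, on 13 UMIs).

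Across the 8 cell types the members were weakly alike, with a median Pearson r of 0.28 over 561 pairs of members (log2(CPM + 1) of the type means) and 43 pairs above 0.8. The most alike pair was Atg13 and Atg9a (r = 0.95), followed by Atg14 and Atg16l1 (r = 0.93), and the most opposed was Tecpr1 and Wipi1 (r = -0.78). These points share libraries and depth and are few, so the values are a description.

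The fibroblast types are divided further into 9 sub-clusters, and sub-cluster 1, with 9965 cells, serves as the reference. Sub-cluster 4, with 1558 cells that are nearly all of the Fibroblast type, had 25 of the 34 members higher in every sample (background 41.5%) and 2 lower (18.1%), with a median log2 ratio of 0.36 against 0.16 over all genes. All 4 initiation genes (median 0.64) and all 4 membrane genes (0.33) were among them. Ulk1 was 26.8 ± 7.07 against 12.4 ± 1.92 CPM, Atg14 18.1 ± 1.96 against 8.60 ± 0.838 CPM, Atg7 29.7 ± 1.99 against 14.7 ± 0.766 CPM, Bnip3l 45.9 ± 4.005 against 23.6 ± 2.68 CPM and Nbr1 73.3 ± 8.62 against 39.1 ± 3.39 CPM. The 2 members lower in every sample were Map1lc3a (284 ± 26.4 against 302 ± 31.4 CPM) and Bnip3 (7.62 ± 1.54 against 9.89 ± 1.08 CPM). The remaining members had no shared direction. The other autophagy genes of a second list, which holds no members, had 24 of 41 higher and 4 lower in the same cells. Of 25 lysosomal genes 22 were higher and 2 lower. Spearman's rho between transcript length and the log2 ratio of sub-cluster 4 to sub-cluster 1 was 0.40 over the 34 members and 0.10 over 14740 genes, and its part was not tested.

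Sub-cluster 3, mostly Fibroblast 2 cells, had 20 members higher (34.1%) and 4 lower (29.0%), with a median of 0.23 against 0.02. Sub-cluster 2, the proliferating cells, had 6 higher (38.3%) and 14 lower (27.8%), with a median of -0.10 against 0.04. Sub-cluster 7, of 214 cells, had 2 higher (8.15%) and 1 lower (13.5%), and its median of 0.02 stood beside -0.06. Its high members were Map1lc3a, at 574 ± 60.9 against 302 ± 31.4 CPM with no overlap, and Bnip3, at 24.3 ± 10.7 against 9.89 ± 1.08 CPM. Sub-clusters 8 and 9, with 168 and 93 cells over all samples, and with 10 or more cells in 4 and 3 samples, had too few cells to describe in the same way. In sub-cluster 8 a median of 91.1% of UMIs were mitochondrial.

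**Figure D3:**
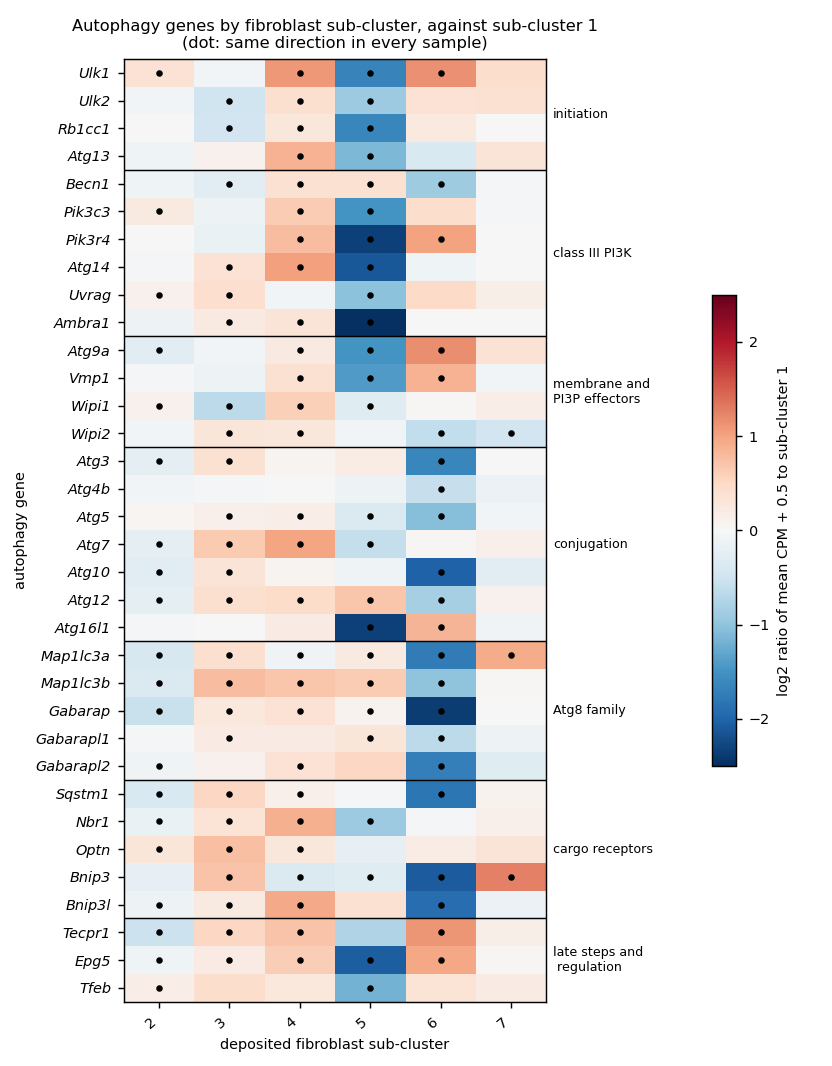
Log2 ratio of the mean CPM + 0.5 of each member (rows, by role) in fibroblast sub-clusters 2 to 7 (columns) to sub-cluster 1, with colour saturating at 2.5 in either direction and a dot where the direction was shared by every sample. Sub-cluster 4 is high in most rows, while sub-clusters 5 and 6 have opposite signs in many of them.

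The shallowest of sub-clusters 1 to 7 were sub-clusters 5 and 6, with 812 and 477 cells and medians of 5856 and 4766 UMIs per cell. Sub-cluster 5 had 6 members higher (14.2%) and 19 lower (49.8%), with a median of -0.48 against -0.62. Sub-cluster 6 had 7 higher (17.6%) and 15 lower (29.4%), with a median of -0.07 against -0.12. The median log2 ratio of the Atg8 family was 0.30 in sub-cluster 5 and -1.71 in sub-cluster 6, and that of the class III PI3-kinase genes -1.81 and 0.22. These class III medians rest on few UMIs. In sub-cluster 5 Ambra1, Atg14, Pik3r4 and Pik3c3 had 5, 7, 9 and 17 UMIs in all. In sub-cluster 6 Atg14, Ambra1 and Pik3c3 had 19, 21 and 27. Uvrag went with the medians, at 18.2 CPM in sub-cluster 5, 52.5 CPM in sub-cluster 6 and 37.8 CPM in sub-cluster 1. Becn1 went the other way, at 127, 52.5 and 97.3 CPM. Gabarap was 1481 ± 128 CPM in sub-cluster 5, with samples of 1320 to 1686 CPM, 267 ± 55.2 CPM in sub-cluster 6, with samples of 213 to 358 CPM, and 1386 ± 130 CPM in sub-cluster 1. Map1lc3a was 351 ± 37.3 CPM in sub-cluster 5 and 89.4 ± 22.6 CPM in sub-cluster 6. Sqstm1 was 152 ± 23.7 and 44.7 ± 19.0 CPM in the same groups, on 840 and 112 UMIs, against 158 ± 9.33 CPM in sub-cluster 1. Atg3 was 143 ± 23.7 and 40.1 ± 9.67 CPM against 126 ± 5.51 CPM.

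Vmp1 (chr11:86583865-86683836, minus strand) and Rb1cc1 had the reverse pattern. Vmp1 was 585 ± 44.3 CPM in sub-cluster 6 (544 to 641 CPM by sample), 121 ± 14.6 CPM in sub-cluster 5 (97.3 to 136 CPM) and 322 ± 31.5 CPM in sub-cluster 1 (290 to 380 CPM), with no overlap among the 3. Rb1cc1 was 104 ± 17.2 CPM in sub-cluster 6, where it overlapped with sub-cluster 1 (88.4 ± 8.41 CPM), and 28.1 ± 3.53 CPM in sub-cluster 5. A median of 21.01% of the UMIs of a cell were mitochondrial in sub-cluster 6, against 2.86% in sub-cluster 1. On a scale of nuclear-encoded UMIs alone the sub-cluster 6 values were 334 CPM for Gabarap and 732 CPM for Vmp1, and the member counts became 8 higher and 14 lower. Transcript length went with these ratios. Over the 34 members, Spearman's rho between the length of the longest annotated transcript and the log2 ratio to sub-cluster 1 was -0.47 in sub-cluster 5 and 0.63 in sub-cluster 6, and over 14740 genes it was -0.45 and 0.41. These correlations are across genes, which share cells and depth and are not independent replicates. The part of length, RNA quality or mitochondrial content in the levels was not tested.

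**Figure D4:**
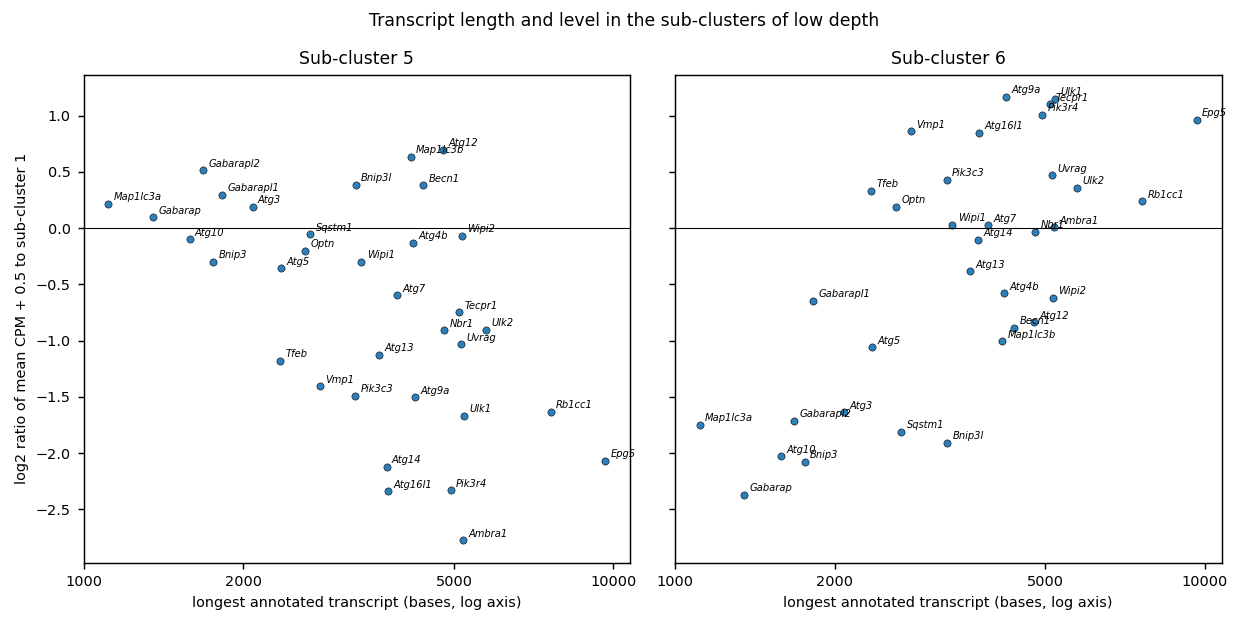
Length of the longest annotated transcript in bases (log axis) against the log2 ratio of mean CPM + 0.5 to sub-cluster 1, for the 34 members in fibroblast sub-clusters 5 and 6. Long members are low in sub-cluster 5 (rho -0.47) and short ones low in sub-cluster 6 (rho 0.63).

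The comparison of genotypes asks whether expression of the autophagy genes changed with loss of Dram2. Over whole samples no member passed voom-limma with Benjamini-Hochberg adjustment (adjusted p under 0.05). None of the 22580 genes tested passed either (0%). All 34 members were tested, 0 had an unadjusted p under 0.05 against 7.01% of all genes, and edgeR and DESeq2 also called 0 members. Over all genes edgeR called 0 and DESeq2 381. The log2 fold changes (ko/ko over wt/wt) ran from -0.14 (Bnip3l) to 0.20 (Bnip3), with 19 members higher and 15 lower and a median of 0.01 against 0.00 over all genes. The 95% confidence interval of every member lay inside a change of 1 on the log2 scale (2-fold), with a median half-width of 0.242 and a widest of 0.376. The median coefficient of variation over the 6 samples was 8.40% for the members and 10.3% for the 14772 genes at 1 CPM or more. Whole-sample sums mix cell types, and fewer cells of a type and less RNA per cell cannot be told apart in them.

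**Figure D5:**
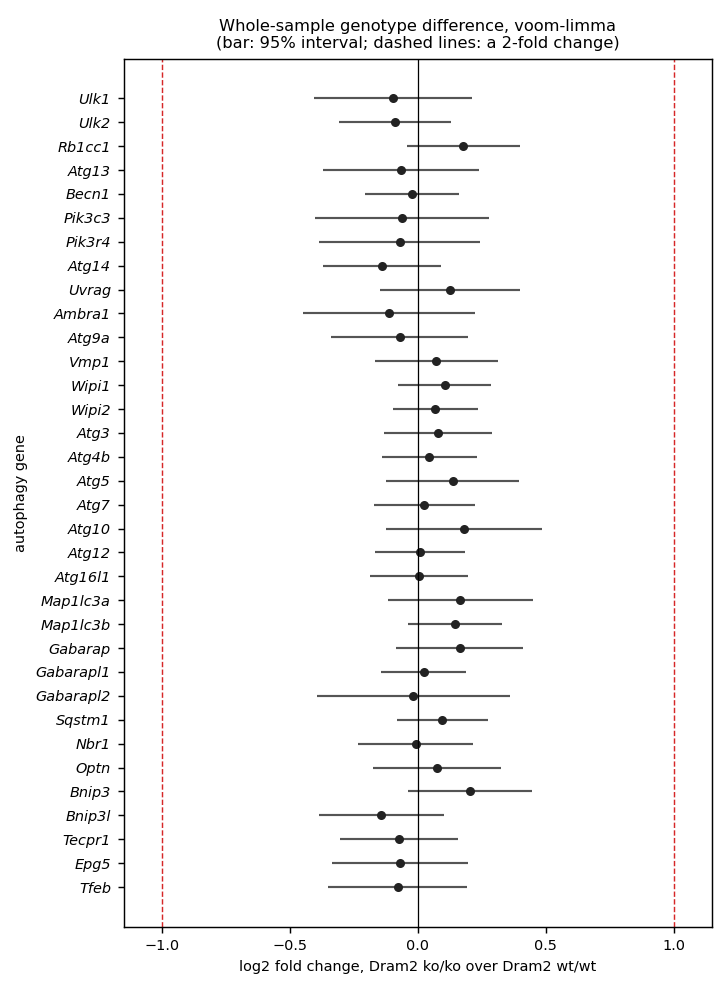
Log2 fold change (ko/ko over wt/wt) of the 34 members over whole samples, with the voom-limma estimate as a point and its 95% confidence interval as a bar, and dashed lines at 1 and -1. Every interval lies between the dashed lines, and the highest estimate is that of Bnip3 (0.20).

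By role, the median log2 fold change was 0.14 for the Atg8 family, 0.07 for the cargo receptors, 0.07 for the membrane genes, 0.04 for conjugation, -0.07 for the class III PI3-kinase genes, -0.08 for initiation and -0.08 for the late factors. The 3 members of smallest unadjusted p were Bnip3, Rb1cc1 and Map1lc3b. Bnip3 was 10.8, 9.35 and 10.3 CPM in the wt/wt and 12.1, 11.7 and 10.8 CPM in the ko/ko samples, with an estimated log2 fold change of 0.20 (SE 0.106, unadjusted p = 0.0892, adjusted p = 0.846), and of 0.13 without replicate 2 of Dram2 wt/wt. All of its ko/ko values lay above its wt/wt values, as was the case for 1 member and for 4.69% of the 14772 genes. Atg14 was the 1 member with all ko/ko values below (9.15, 8.59 and 8.99 CPM against 9.64, 9.48 and 10.7 CPM), as for 5.9% of genes. Rb1cc1 was 86.7, 74.9 and 84.1 CPM and 90.9, 83.5 and 101 CPM, with overlap (log2 fold change 0.18, SE 0.0958, adjusted p = 0.861), and was at 0.10 without replicate 2 of Dram2 wt/wt. Map1lc3b was 87.0, 80.9 and 78.4 CPM and 90.7, 91.2 and 86.7 CPM, where 1 ko/ko value lay just below the highest wt/wt value (log2 fold change 0.14, SE 0.0804, adjusted p = 0.874). Dram1, the paralog of Dram2 and a p53 target, had an estimate of 0.11 (log2 scale, adjusted p = 0.936), which turned to -0.02 without Dram2 ko/ko replicate 2.

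Within cell types no member was called either. The share of all genes without overlap between genotypes was counted over whole samples only. Nothing is therefore read from a lack of overlap within a type or sub-cluster. In the fibroblast types all 34 members were tested. Of all genes, 0.00503% were called in Fibroblast, 0.222% in Fibroblast 2 and 0.624% in Fibroblast proliferating, and every member interval lay inside the 2-fold limits. At an unadjusted p under 0.05 there were 0 members in each, against 7.18%, 6.2% and 6.79% of genes. In Fibroblast the smallest p was that of Wipi1, at 112, 103 and 107 CPM in the wt/wt and 120, 115 and 118 CPM in the ko/ko samples, which did not overlap (log2 fold change 0.13, SE 0.0728, adjusted p = 0.861). Pik3c3 in Fibroblast 2 (7.56, 9.79 and 8.05 against 7.42, 4.61 and 7.71 CPM) differed by -0.38 on the log2 scale (SE 0.218, adjusted p = 0.887), and by -0.14 without Dram2 ko/ko replicate 2. Bnip3l in Fibroblast proliferating (20.6, 25.9 and 23.4 against 22.6, 18.8 and 19.2 CPM) differed by -0.21 (SE 0.114, adjusted p = 0.912), and by -0.14 when replicate 2 of Dram2 wt/wt was left out. Both sets of values overlapped.

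RPE cells had all 34 members tested, 0% of genes called, and 1 member at an unadjusted p under 0.05 against 4.65% of genes. That member was Rb1cc1, at 76.5, 92.4 and 76.1 CPM in the wt/wt and 119, 84.5 and 158 CPM in the ko/ko samples, with overlap (log2 fold change 0.55, SE 0.217, unadjusted p = 0.0371, adjusted p = 1.00). The value without Dram2 ko/ko replicate 3, which is also the value within batch 1, was 0.36. Only 24 of the 34 RPE intervals lay inside the 2-fold limits (widest half-width 1.17), so a 2-fold change lay within the interval for the other 10. Fibroblast-like cells had 22 members past the filter on low counts, 0% of genes called and 1 member at an unadjusted p under 0.05 against 5.08%. It was Atg5, the conjugation partner of Atg12, at 44.2, 41.4 and 31.5 CPM and 49.4, 62.4 and 46.7 CPM without overlap (log2 fold change 0.44, SE 0.198, unadjusted p = 0.0461, adjusted p = 0.969). The cells of sub-cluster 8 within this type numbered 5, 17 and 23 in the wt/wt and 89, 0 and 34 in the ko/ko samples, and their part in the Atg5 level was not tested.

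In the smaller types fewer members passed the filter, 21 in Endothelial, 26 in Pericyte and 21 in Myeloid cells, and 18, 19 and 12 of them had intervals inside the 2-fold limits. Endothelial cells had 0% of genes called and 0 members at an unadjusted p under 0.05 against 5.24%. The endothelial Bnip3 values given above overlapped between genotypes (log2 fold change 0.48, SE 0.244, adjusted p = 0.952), and the value was 0.28 without replicate 2 and 0.74 without replicate 1 of Dram2 wt/wt. Of the hypoxia-induced list 17 genes were tested in these cells, with 0 called, 4 at an unadjusted p under 0.05 and a median of 0.28 against 0.00 over all genes. The Pericyte type had 0.0118% called and 0 members against 5.9%. Its Sqstm1 values of 159, 156 and 139 CPM in wt/wt and 304, 184 and 161 CPM in ko/ko did not overlap (log2 fold change 0.42, SE 0.211, adjusted p = 0.859), and without Dram2 ko/ko replicate 1 the log2 fold change was 0.19. Myeloid cells, with 2 samples of each genotype, had 0.0296% called and 2 members at an unadjusted p under 0.05 against 5.94%. These were Atg5, at 55.8 and 74.0 CPM in wt/wt and 96.4 and 104 CPM in ko/ko (log2 fold change 0.71, SE 0.294, adjusted p = 0.813, and 0.47 without replicate 2 of Dram2 wt/wt), and Atg4b, at 65.9 and 34.5 CPM against 22.7 and 22.0 CPM (-1.09, SE 0.494, adjusted p = 0.834).

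The fibroblast sub-clusters gave the same count of 0 members called. All 34 members were tested in sub-clusters 1 to 4, where 0.32%, 0.55%, 0.00634% and 0.722% of genes were called, and every member interval lay inside the 2-fold limits. Members at an unadjusted p under 0.05 numbered 0, 0, 0 and 1, against 7.21%, 6.83%, 5.38% and 6.54% of genes. The 1 was Map1lc3b in sub-cluster 4, at 118, 123 and 119 CPM in wt/wt and 135, 141 and 139 CPM in ko/ko without overlap (log2 fold change 0.20, SE 0.0891, unadjusted p = 0.0483, adjusted p = 0.761). In sub-clusters 5, 6 and 7, 20, 22 and 26 members passed the filter, with 0%, 0% and 0.402% of genes called. The intervals of 17, 19 and 19 of these members lay inside the 2-fold limits, and the others reached beyond them. Here 2, 0 and 1 members had an unadjusted p under 0.05, against 7.48%, 4.63% and 7.22%. They were Gabarapl2 (log2 fold change 0.72, adjusted p = 0.616) and Atg4b (0.60, adjusted p = 0.664) in sub-cluster 5 and Atg5 (0.49, adjusted p = 0.645) in sub-cluster 7. No member passed the filter in sub-cluster 8, and sub-cluster 9 could not be fitted.

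Whether the genotype effect differed between a type and Fibroblast was tested as an interaction with sample as a factor, and 0 of 34 members were called for each of the 7 other types. The filter was applied to both types together. Within the type itself 21 members passed it in Endothelial, 22 in Fibroblast-like, 21 in Myeloid and 26 in Pericyte cells. The others entered only with the Fibroblast counts, and the count of 0 is no support for any statement on them. The share of all genes called was 0% for Endothelial, Fibroblast 2, Fibroblast-like, Myeloid, Pericyte and RPE cells and 0.0101% for Fibroblast proliferating. With edgeR, 37 genes were called for Endothelial, 38 for Pericyte, 25 for Myeloid, 6 for Fibroblast-like cells and 1 for Fibroblast proliferating. It called 0 for Fibroblast 2 and RPE, and 0 members for each type. Without Dram2 wt/wt replicate 1, voom-limma called 47 genes for Fibroblast 2. Members at an unadjusted p under 0.05 numbered 2 in Endothelial cells (6% of genes), 1 in Fibroblast proliferating (3.72%) and 0 in Fibroblast 2 (5.13%), Fibroblast-like (3.94%), Myeloid (5.8%), Pericyte (4.51%) and RPE cells (1.86%). The 2 in Endothelial cells, Ulk1 and Pik3r4, did not pass the filter in that type alone, and nothing is read from them.

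Further genes of the pathway gave the same count. Of 126 genes in 6 lists, none was called between genotypes in any comparison. Over whole samples, 44 of 45 other autophagy genes were tested, with 3 at an unadjusted p under 0.05 (7.01% of all genes) and a median log2 fold change of -0.01. The 25 lysosomal genes had 0 and a median of -0.01, the 18 hypoxia-induced genes 2 and 0.09 (3 of 13 tested in the Pericyte type, against 5.9% of all genes, median 0.08), and the 10 Nrf2 targets 0 and 0.08. In Myeloid cells 4 of 24 lysosomal genes tested had such a p, against 5.94% of all genes, with a median of -0.32. In sub-cluster 6 so did 4 of 21 other autophagy genes (4.63% of all genes, median -0.16). The next counts are again over whole samples. The 12 targets of Atf4, the stress factor that induces Sqstm1 and Map1lc3b among others, had 3 and a median of 0.04, and the 16 genes of the nutrient sensors mTORC1 and AMPK had 1 and a median of -0.01.

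Some members share 3′ sequence with near-identical copies or overlapping genes. In the last 400 bases of the transcripts, where 3′ libraries read, the share of 31-base words also found in another gene was 48.1% for Bnip3, 39.6% for Bnip3l (a pseudogene, Bnip3l-ps), 39.1% for Atg9a, 33.2% for Becn1 (the neighbouring Cntd1), 16.0% for Rb1cc1, 15.4% for Map1lc3b, 11.6% for Uvrag and 10.8% for Sqstm1, and 6.11% or less for the others. Words were matched on either strand, so these shares also count genes that overlap on the opposite strand. Whether reads were split was not tested, and the levels of the first 4 may be less certain than those of the rest.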

How the data were processed

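Cells from 3 Dram2 wt/wt and 3 Dram2 ko/ko samples were sequenced by the authors with the 10x 3′ v2 protocol. The deposited values are raw UMI counts per gene and cell, made with Cell Ranger 3.1.0 on GRCm38 (exons only), per the submitters' processing notes and the study's methods, with the cell types and sub-clusters of the authors. Groups came from the genotype labels. Counts were summed per sample and cell type (10 cells or more) and tested with voom-limma (limma 3.58.1, edgeR 4.0.16 TMM factors and filterByExpr, R 4.3.3), adjusted over all genes tested. Alternatives included edgeR's quasi-likelihood test and DESeq2 1.42.0. Scripts were tested on simulated data. Levels are CPM. Members without a call were named by smallest unadjusted p (3 over whole samples, 1 per type), and members by type by the ratio of highest to lowest type; others shown were chosen after their values were seen. The members and lists were chosen with earlier results of these data known. No doublet call was made, and no profile was identical to another, but barcodes shared between libraries cannot be counted from the cell names. Motifs were searched in RefSeq windows. Intervals cover the spread between samples.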

Additional observations from a re-analysis of the deposited data

Results flagged for a closer look

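In groups of 4 to 6 samples, 9 of 136 gene and cell type groups held a sample whose gap to the nearest other sample passed Dixon's 95% criterion, which chance meets in about 1 of 20 groups. In the 4 Myeloid samples, Tfeb was 22.7 CPM in Dram2 ko/ko replicate 2 (8.01 to 9.86 in the others) and Uvrag 62.4 CPM in the same sample (38.1 to 40.6). Map1lc3a was 277 CPM in Myeloid cells of Dram2 wt/wt replicate 2 (158 to 176), and Atg9a 6.01 CPM in those of Dram2 ko/ko replicate 3 (17.0 to 18.6). The Pericyte type of Dram2 ko/ko replicate 1, with 17 cells, had Sqstm1 at 304 CPM (139 to 184) and Uvrag at 34.05 CPM (16.5 to 22.7). Sqstm1 was 176 CPM in Fibroblast-like cells of Dram2 ko/ko replicate 2 (106 to 132). Atg13 was lowest in Fibroblast proliferating of that replicate, at 8.28 CPM (10.6 to 11.5). Gabarapl1 was 79.3 CPM in RPE cells of Dram2 ko/ko replicate 1 (34.8 to 46.4).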

How the results depend on the processing

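Of the members tested, 0 were called in 16 genotype comparisons within a type, a sub-cluster or the whole sample and in 233 alternative fits of them, which changed the test, scaling, filters, cells or samples. The labels do not say whether samples of the same replicate number shared a day. Correlations of same-numbered samples, over genes and after removal of the genotype mean, were 0.0987, -0.429 and 0.028. Those of other pairs ran from -0.441 (wt/wt replicate 1 with ko/ko replicate 3) to 0.485 (wt/wt replicate 1 with ko/ko replicate 2). These values cannot tell whether a day was shared. With the replicate block, 0 members were called, and genes called numbered 0 over whole samples, 2 in Fibroblast 2, 0 in Fibroblast proliferating and 32 in Myeloid cells. DESeq2 called 381 genes over whole samples, 321 in Fibroblast, 168 in Fibroblast 2, 320 in Fibroblast proliferating and 25 in RPE, against 0, 1, 33, 113 and 0, while edgeR called 0, 1, 11, 62 and 0. In sub-clusters 1 and 2 DESeq2 called 302 and 319 genes, edgeR 1 and 63 and the replicate block 2 and 0, against 61 and 99. For sub-clusters 3 and 4 DESeq2 called 178 and 166, edgeR 1 and 84 and the replicate block 2 and 53, against 1 and 99. Leaving out 1 sample gave 0 to 153 genes in sub-cluster 3 and 28 to 168 in sub-cluster 4. Without Dram2 ko/ko replicate 1, 242 genes were called over whole samples, 234 in Fibroblast, 121 in Fibroblast 2 and 290 in Fibroblast proliferating. Without replicate 2 of Dram2 ko/ko or replicate 3 of Dram2 wt/wt these numbers were 0. They were 117, 150, 52 and 226 without replicate 3 of Dram2 ko/ko, 0, 1, 0 and 80 without replicate 1 of Dram2 wt/wt, and 1, 1, 1 and 0 without its replicate 2. The cause was not tested. Of 126 other listed genes, 3 were called under at least 1 alternative. Leaving out 1 sample, log2 fold changes were 0.13 to 0.26 (Bnip3), 0.10 to 0.23 (Rb1cc1), 0.10 to 0.19 (Map1lc3b) and -0.37 to -0.27 (Dram2). That of Dram1 ranged from -0.025 to 0.288, turning from 0.106 to -0.025 when replicate 2 of Dram2 ko/ko was left out. Within batch 1 Bnip3 was at 0.26. A minimum of 50 cells was not run for Endothelial, Myeloid, Pericyte and sub-clusters 7 and 8, nor the replicate block for the interactions and sub-cluster 8. Fewer intervals excluded a 2-fold change in the RPE, Endothelial, Pericyte, Myeloid and Fibroblast-like types and in sub-clusters 5, 6 and 7.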

Other observations

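Genes outside the list differed between cell types in their own way. Of 25 lysosomal genes, 19 were higher in Myeloid cells than in Fibroblast in every sample and 1 lower (median log2 ratio 0.55), while in Endothelial cells 3 were higher and 15 lower (median -0.50). The other autophagy genes at 1 CPM or more had 13 of 41 higher and 3 lower in Endothelial cells (median 0.27). Dram2 ko/ko replicate 2, the sample with most cells and fewest UMIs per cell, had the lowest whole-sample level of 16 members and the highest of 9, where it was lowest for 33.5% and highest for 23.7% of all genes.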
